A study of Mus musculus with 4 samples.

Results

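The semaphorin, plexin, neuropilin, ephrin and Eph receptor genes were examined in mBMSCs, the primary adherent mesenchymal stromal cells of mouse bone marrow. Members were taken by gene symbol alone, and 53 of the 24346 symbols in the expression table matched, namely 20 semaphorins, 9 plexins, 2 neuropilins, 8 ephrins and 14 Eph receptors. The study asked how depletion of ZBP1, a sensor protein that binds Z-DNA, alters gene expression in these cells. RNA was sequenced from 4 samples, 2 transfected with a scrambled siRNA (siScr) and 2 with siRNA against Zbp1 (siZBP1). All cells came from wild-type mice aged 3 months, of strain C57BL/6 in the labels and C57BL/6J in the methods, all received siRNA with Lipofectamine RNAiMAX, and RNA was collected 72 h later, so no untransfected sample was compared. The cells were grown from femoral marrow in serum after nonadherent cells had been washed away, and they were not sorted. The labels do not say whether the samples of a group came from separate animals or cultures, and p-values therefore measure only the spread between these samples, which may be technical.

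Semaphorins are secreted or membrane-bound ligands whose main receptors are the plexins, with neuropilins as co-receptors for the secreted class 3. Ephrins are membrane-bound ligands of the Eph receptor tyrosine kinases, and both partners can signal when neighbouring cells touch. These families are best known for steering axons, and in bone they carry signals between osteoclasts and osteoblasts, such as Sema4d acting on Plxnb1 and Efnb2 acting on Ephb4.

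Expression was given as FPKM, that is, fragments scaled to transcript length and to the mapped reads of the library, which allows levels to be compared between genes. Zbp1 (chromosome 2, 173206612 to 173218923, minus strand, GRCm38) was at 86.0 and 62.0 FPKM in the siScr samples and at 11.5 and 11.6 FPKM in the siZBP1 samples. The targeted transcript was thus lower in both siZBP1 samples, and limma gave a log2 fold change of -2.56 (SE, standard error, 0.16, adjusted p = 0.00322). With siZBP1 replicate 1 left out the limma adjusted p of Zbp1 was 0.0618, and with replicate 2 left out it was 0.0510. Depth was not given, and a rough estimate from the spacing of low values was 14 and 19 M fragments in siScr and 10 and 18 M in siZBP1. Mesenchymal markers ranged widely as siScr means, from Col1a1 at 2793 FPKM through Pdgfrb at 44.3 and Eng at 23.6 FPKM to low values. The low ones included Thy1 at 3.28, Pdgfra at 3.16 and Lepr at 1.07 FPKM. Genes of the macrophage list were present too, with Csf1r at 469, Adgre1 at 291 and Ptprc at 76.7 FPKM. The 15 macrophage markers measured summed to 8527 and 9485 FPKM in siScr and 13869 and 13163 FPKM in siZBP1, and 10 of them were higher by limma and 0 lower (12 and 0 at an unadjusted p under 0.05). Such a sum follows its highest gene, here Lyz2 (means 3230 in siScr and 5636 FPKM in siZBP1). The 5 markers not called had ratios of means from 1.02 (Fcgr1) to 1.145 (Aif1), with Adgre1 at 1.09. The 12 mesenchymal markers summed to 5660 and 4739 FPKM in siScr and 3276 and 3317 FPKM in siZBP1. Of the 11 tested, 5 were lower and 1, Nt5e, was higher (ratio of means 5.12, limma adjusted p = 0.00954). The mesenchymal sum follows its highest genes. These were Col1a1, called lower (means 2793 in siScr and 1160 FPKM in siZBP1), and Col1a2, not called (1949 and 1820 FPKM). Of the 6 smooth muscle and pericyte markers, 4 were tested and all 4 were lower, and the list fell from 960 and 991 FPKM to 157 and 184 FPKM. Of the 6 osteoblast markers 5 were lower and 1, Spp1, was higher. Their sum was 1927 and 2957 FPKM in siScr and 4715 and 4507 FPKM in siZBP1. It follows Spp1 (means 2071 in siScr and 4549 FPKM in siZBP1). The 8 endothelial markers summed to 10.7 to 10.9 FPKM in every sample, with 2 tested and 0 called. Of the 6 Schwann and neural markers 2 were tested, Mbp, which was higher, and Tubb3, which was lower, and their sum was 26.2 to 29.4 FPKM. In addition, the 6 B and T cell markers summed to less than 1 FPKM, with Cd3g at 0. In such bulk samples, fewer cells of a type and less RNA per cell cannot be told apart, and the part of these cell populations in the results below was not tested.

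The guidance genes were expressed over a wide range, and a few genes, mostly receptors, held most of the signal. The most abundant member was Nrp2, a neuropilin that binds class 3 semaphorins and VEGF, at 156 and 154 FPKM in siScr and 147 and 147 FPKM in siZBP1. It was followed by Plxnb2, Sema4d, Nrp1 and Plxna1, with siScr means of 119, 75.5, 61.5 and 58.2 FPKM. These 5 genes made up 71.3% of the summed FPKM of all 53 members in siScr cells and 76.6% in siZBP1 cells. Nrp1 and Plxna1 exchanged ranks 4 and 5 between the groups, and in siScr they did not differ beyond their spread, since Nrp1 ranged from 57.1 to 66.0 FPKM and Plxna1 from 57.4 to 59.0 FPKM. Plxnc1 at 39.0, Efnb1 at 23.8 and Plxnd1 at 22.5 FPKM came next, and the values of Efnb1 (25.8 and 21.8) enclosed those of Plxnd1 (22.5 and 22.6). In all, 8 members reached a siScr mean of 10 FPKM. At the other end, Epha8 was at 0 in every sample and Epha10 was at 0 in both siScr samples. The summed FPKM of the 53 members was 663 and 655 in siScr and 637 and 632 in siZBP1.

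**Figure D1:**
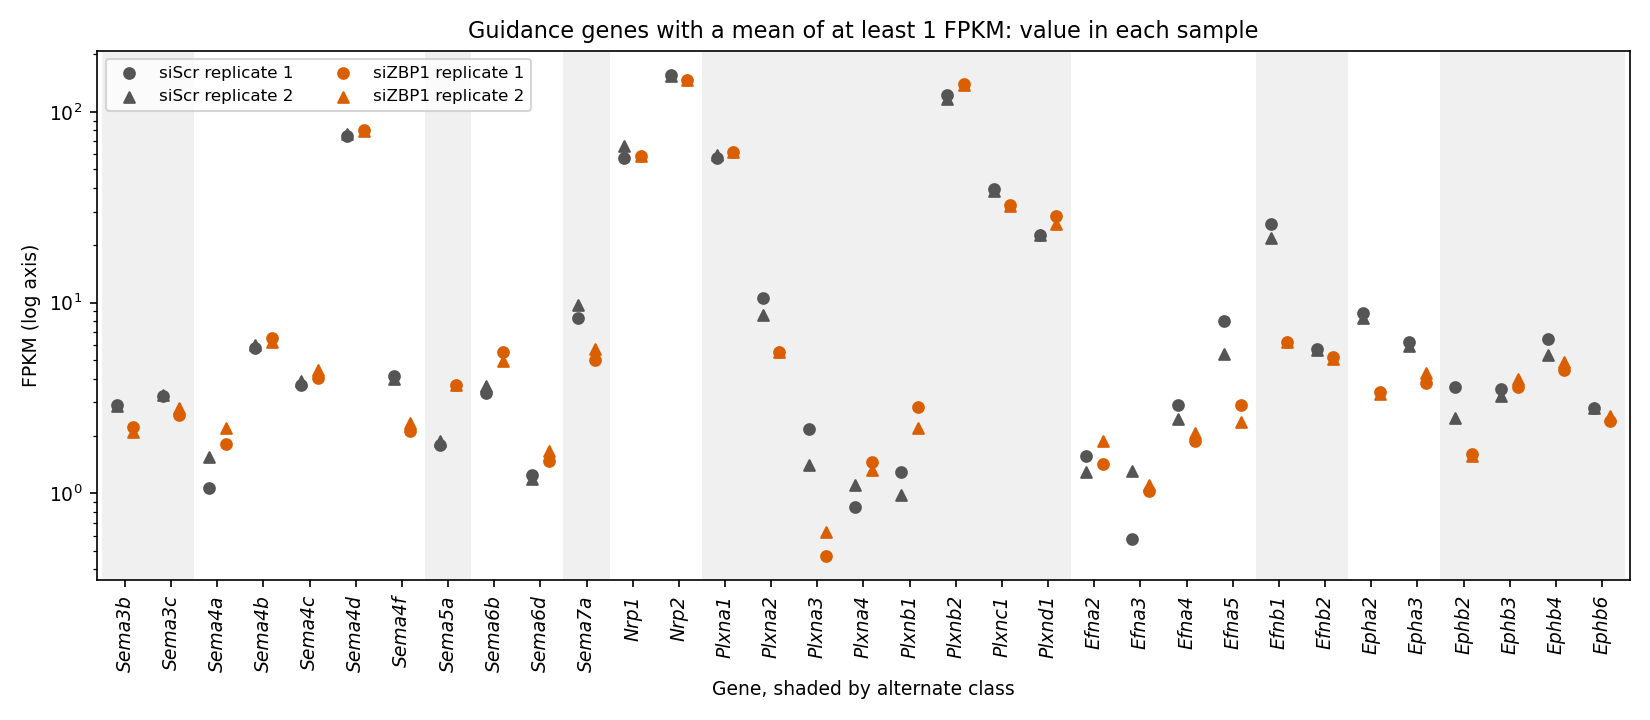
FPKM on a log axis of the 33 guidance genes with a mean of at least 1 FPKM, in each siScr sample (grey) and each siZBP1 sample (orange), ordered by gene class. Nrp2 and Plxnb2 stand highest in every sample, and the widest gap between the groups among genes above 10 FPKM in siScr is that of Efnb1, from 25.8 and 21.8 to 6.23 and 6.24 FPKM.

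To compare the groups, limma, a linear model that shares variance between genes, was applied to log2(FPKM + 1) of the 11959 genes with a mean of at least 1 FPKM, and p-values were corrected by the Benjamini-Hochberg method. The added 1 understates the change of low genes. Of the 53 members 33 passed this filter, with Efna3 just inside it and Efna1 just outside at a mean of 0.987 FPKM, and 20 did not. At an adjusted p under 0.05, 9 members were lower in siZBP1 cells, 5 were higher and 19 did not pass. These are 27.3% and 15.2% of the members tested, where 14.8% of all genes tested were lower and 13.5% were higher. The higher share is thus near the background, and the difference of the lower share from the background was not tested. The median log2 fold change of the members was -0.08, against 0.00446 over all genes tested. All ephrins and Eph receptors that passed the threshold were lower (4 of 12 tested, with 0 higher, and 5 lower and 0 higher at an unadjusted p under 0.05), while the semaphorins, plexins and neuropilins had 5 lower and 5 higher of 21 tested. Median log2 fold changes were -0.29 and 0.08, respectively. For 30 of the 33 members, 17 lower and 13 higher, the groups were separate, meaning that the siZBP1 values both lay above or both lay below those of siScr, but the same was true of 68.4% of all genes tested.

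Fewer members were called when a sample was left out. Each such fit has 1 sample in a group and takes its variance from the other group, and calls fell over all genes too. These losses therefore cannot show whether a change rests on 1 sample. Adjusted p-values of such fits are given for single genes, but they cannot rank genes by how far each rests on 1 sample. Without siZBP1 replicate 1, none (0) of the 14 called members passed the limma threshold, where 48 genes in all were lower and 22 higher, while at an unadjusted p under 0.05 this fit had 10 members lower and 3 higher, and 1761 and 1477 of all genes. Without siZBP1 replicate 2, only 1 of the 14 passed, namely Efnb1 (adjusted p = 0.0469), where 113 genes in all were lower and 32 higher. Without siScr replicate 1, 6 of the 13 still tested passed, and without siScr replicate 2, 8 of 14 passed. The sign changed for 0 of the 14 in any of these fits. With 2 samples against 2, the smallest two-sided p of an exact permutation test of 1 gene is 0.333, and the adjusted p-values thus draw on the variance shared between genes. The median difference between replicates of a member was 0.08 on the log2 scale in each group, and the median difference between group means was 0.28, against 0.18 for all genes.

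**Figure D2:**
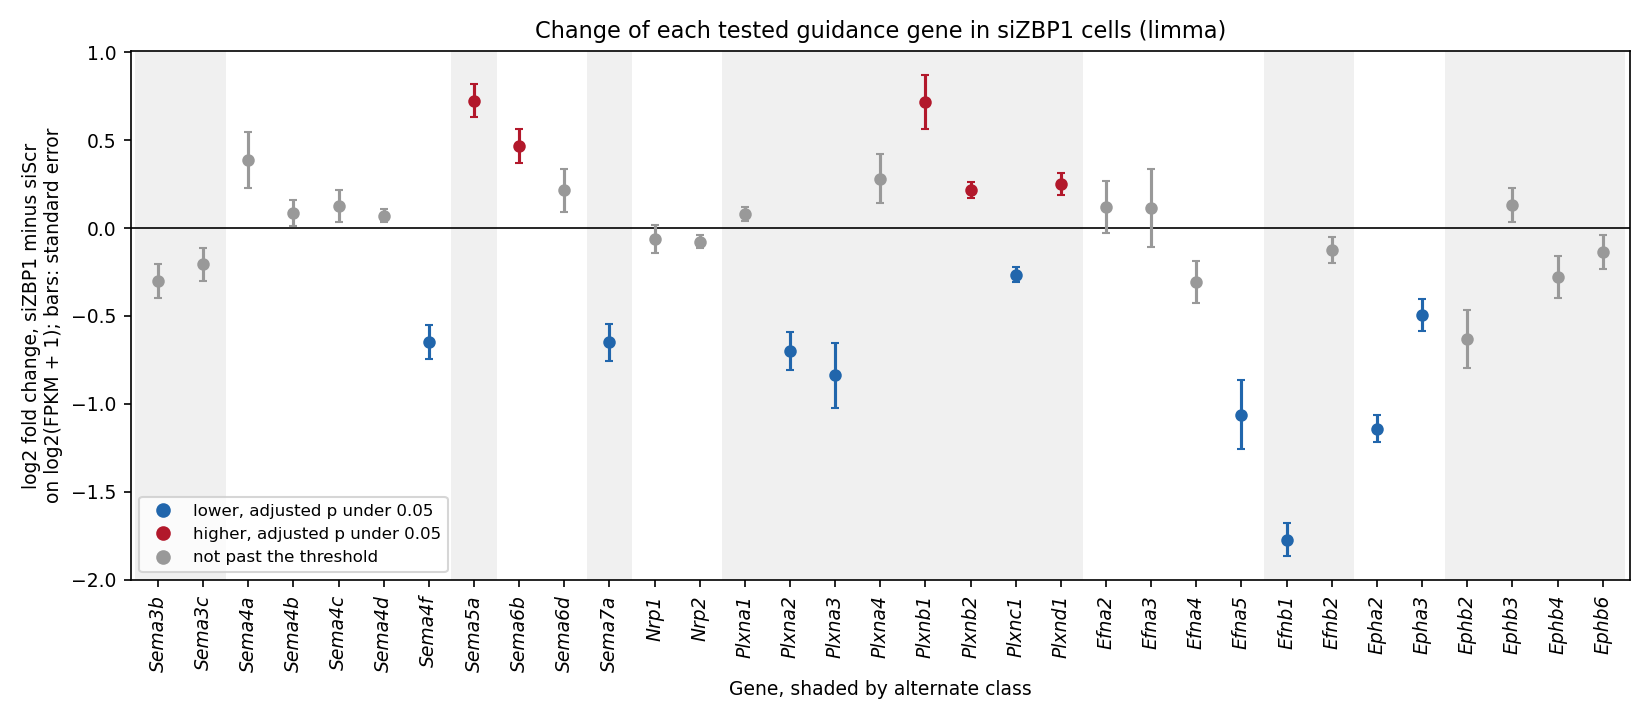
Limma log2 fold change (siZBP1 minus siScr, on log2(FPKM + 1)) of the 33 guidance genes tested, with bars of 1 SE from 2 samples per group. The 9 genes called lower are blue, the 5 called higher are red, and Efnb1 at -1.77 lies lowest.

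**Figure D3:**
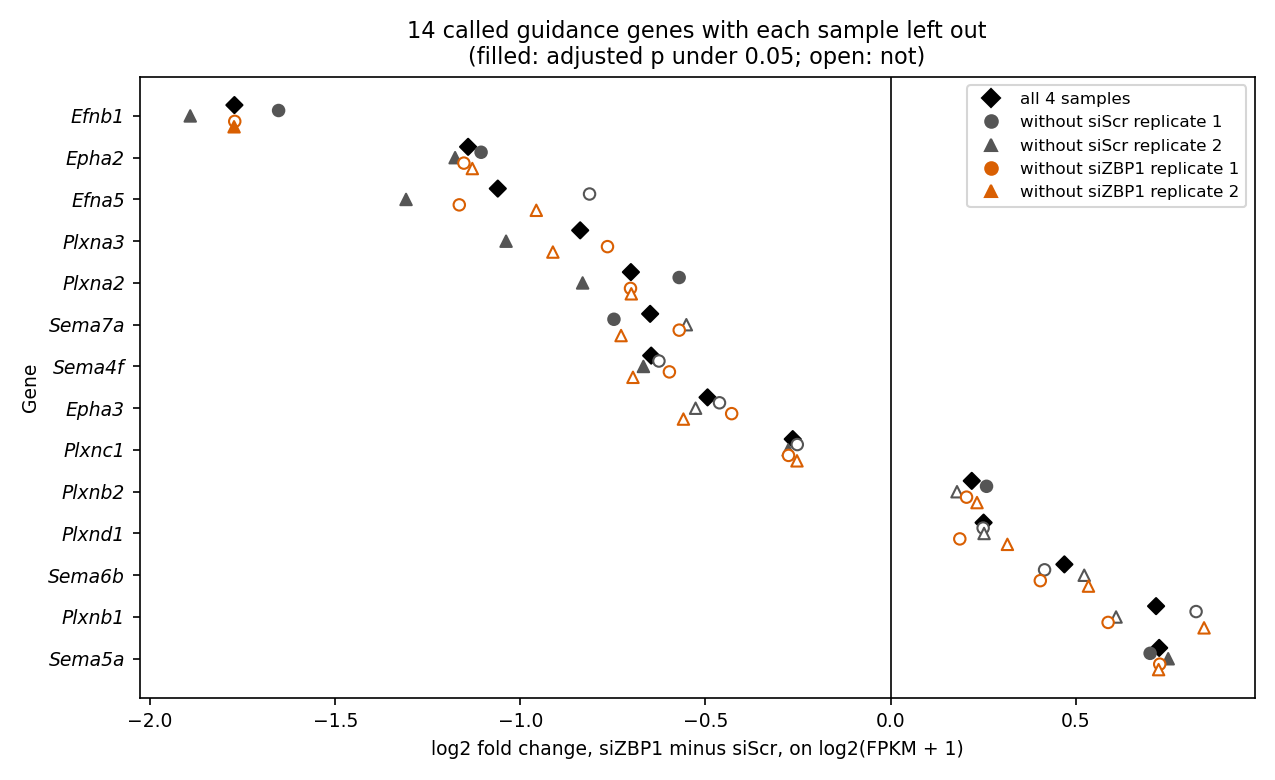
Limma log2 fold change of the 14 called guidance genes with all 4 samples and with each sample left out in turn, filled where the adjusted p stayed under 0.05. No gene crosses 0, Efnb1 stays between -1.89 and -1.65, and without siZBP1 replicate 1 (orange circles) no point is filled.

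Among the ephrin ligands, the membrane-spanning Efnb1, whose loss disturbs skull and skeletal patterning, showed the largest fall of any member tested. Efnb1 (chromosome X, 99136130 to 99148991, plus strand, GRCm38) was at 25.8 and 21.8 FPKM in siScr and at 6.23 and 6.24 FPKM in siZBP1. Both siZBP1 samples lay far below both siScr samples, and the siZBP1 mean was 0.262 of the siScr mean (23.8 ± 2.90 against 6.24 ± 0.00629 FPKM, SD, n = 2 each). The limma log2 fold change was -1.77 (SE 0.096, adjusted p = 0.00264), and without siZBP1 replicate 1 the adjusted p was 0.0576. Its share of the summed FPKM of all members went from 3.61% to 0.982%, and its rank from 7 to 9. The closest relative, Efnb2, a ligand of Ephb4, was at 5.70 and 5.65 FPKM in siScr and at 5.19 and 5.07 FPKM in siZBP1. That difference did not pass the threshold (log2 fold change -0.12, limma adjusted p = 0.278). Efnb1 was therefore 4.54 and 3.85 times the level of Efnb2 in the siScr samples and 1.20 and 1.23 times in the siZBP1 samples. The third ephrin-B gene, Efnb3, was near the detection limit, at 0.0574 and 0.115 FPKM in siScr and 0.189 and 0.182 FPKM in siZBP1, and was not tested.

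The ephrin-A ligands are held to the membrane by a lipid anchor. Efna5 (chromosome 17, 62604184 to 62881317, minus strand) was at 7.98 and 5.37 FPKM in siScr and at 2.90 and 2.37 FPKM in siZBP1. The groups did not overlap, although the siScr samples differed widely from each other, and the limma log2 fold change was -1.06 (SE 0.19, adjusted p = 0.0217). With siScr replicate 1 left out the adjusted p was 0.0532, and with siZBP1 replicate 1 or 2 left out it was 0.117 or 0.127. Efna1 lay just under the filter, at 1.52 and 1.20 FPKM in siScr and 0.673 and 0.555 FPKM in siZBP1, a ratio of means of 0.451. Efna4 was at 2.90 and 2.45 FPKM in siScr and 1.88 and 2.06 FPKM in siZBP1, and did not pass (limma adjusted p = 0.125). The other two tested, Efna2 and Efna3, had overlapping groups and log2 fold changes of 0.12 and 0.11. Efna1, Efna3 and Efna4 lie side by side on chromosome 3, with 32757 bases between the first 2 genes and 10425 between the next.

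Of the Eph receptors, the 2 EphA genes that were tested were both lower. Epha2, a kinase receptor for ephrin-A ligands (chromosome 4, 141301240 to 141329384, plus strand), was at 8.82 and 8.35 FPKM in siScr and at 3.38 and 3.31 FPKM in siZBP1. The groups were well separated, with small spread in each, and the limma log2 fold change was -1.14 (SE 0.077, adjusted p = 0.00343). With siZBP1 replicate 1 left out its adjusted p was 0.0618, and with replicate 2 left out 0.0545. Epha3, which binds ephrin-A5 among others, was at 6.25 and 5.93 FPKM in siScr and at 3.81 and 4.26 FPKM in siZBP1. Its fall was smaller, with a limma log2 fold change of -0.49 (SE 0.090, adjusted p = 0.0211), and the adjusted p of Epha3 was over 0.05 with any 1 of the 4 samples left out, from 0.0529 without siScr replicate 2 to 0.134 without siZBP1 replicate 1. Ephb2, a receptor for ephrin-B ligands, was at 3.62 and 2.50 FPKM in siScr and at 1.62 and 1.58 FPKM in siZBP1. The groups of Ephb2 did not overlap and the ratio of means was 0.522, but the siScr samples were far apart and the limma adjusted p was 0.0515. Without siScr replicate 2 it was 0.0279, without siScr replicate 1 it was 0.0927, and without siZBP1 replicate 1 or 2 it was 0.198 or 0.189.

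The remaining EphB receptors did not pass the threshold in either direction. Ephb4, the main receptor of Efnb2, was at 6.47 and 5.30 FPKM in siScr and 4.42 and 4.90 FPKM in siZBP1 (log2 fold change -0.28, limma adjusted p = 0.148). The level of Efnb2 relative to Ephb4 was 0.880 and 1.07 in siScr and 1.17 and 1.03 in siZBP1, so that these ratios overlapped. Ephb3 had a log2 fold change of 0.13 and Ephb6, which lacks kinase activity, one of -0.13. The summed FPKM of the ephrin-B genes was 31.6 and 27.5 in siScr and 11.6 and 11.5 in siZBP1, and that of the EphB genes was 16.5 and 13.9 against 12.1 and 13.1. For the A class, the ligands summed to 14.5 and 11.6 against 7.91 and 7.97 FPKM, and the receptors to 16.0 and 15.7 against 8.80 and 8.81 FPKM. The siZBP1 values of these 4 classes lay below the siScr values in each, by the most in the ephrin-B class, where Efnb1 carried most of the level.

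The semaphorin ligands moved in both directions. Sema7a, a lipid-anchored semaphorin that signals through integrins and Plxnc1, was at 8.31 and 9.66 FPKM in siScr and at 5.01 and 5.70 FPKM in siZBP1. It was lower in both siZBP1 samples, with a limma log2 fold change of -0.65 (SE 0.11, adjusted p = 0.0170). Sema4f, a membrane-bound class 4 semaphorin, was at 4.15 and 3.999 FPKM in siScr and at 2.13 and 2.35 FPKM in siZBP1, with no overlap and a limma log2 fold change of -0.65 (SE 0.097, adjusted p = 0.0139). Without siZBP1 replicate 1 the adjusted p was 0.122 for Sema7a and 0.103 for Sema4f, and without siZBP1 replicate 2 it was 0.0852 and 0.0825. Sema7a also lost the threshold without siScr replicate 2 (0.0506) and Sema4f without siScr replicate 1 (0.0557).

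The semaphorin with the largest rise was Sema5a, a membrane protein with thrombospondin repeats. Sema5a (chromosome 15, 32244810 to 32696341, plus strand) was at 1.79 and 1.89 FPKM in siScr and at 3.69 and 3.70 FPKM in siZBP1. The replicates were close in both groups, the ratio of means was 2.01, and the limma log2 fold change was 0.73 (SE 0.096, adjusted p = 0.0105). Sema6b, a membrane-bound ligand of class A plexins, was at 3.34 and 3.68 FPKM in siScr and at 5.53 and 4.96 FPKM in siZBP1. The groups were separate and the ratio of 1.49 lay just under 1.5, with a limma log2 fold change of 0.47 (SE 0.097, adjusted p = 0.0292). Without siZBP1 replicate 1 the adjusted p was 0.0948 for Sema5a and 0.167 for Sema6b, and without siZBP1 replicate 2 it was 0.0846 and 0.106. For Sema6b it was also over 0.05 without siScr replicate 1 (0.0940) and without siScr replicate 2 (0.0542).

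Sema4d, the most abundant ligand and a partner of Plxnb1 and Plxnb2, was at 74.7 and 76.3 FPKM in siScr and at 79.8 and 78.9 FPKM in siZBP1. Although the groups did not overlap, the difference did not pass (log2 fold change 0.07, limma adjusted p = 0.236). Sema4a, also a class 4 ligand, was at 1.07 and 1.54 FPKM in siScr and at 1.82 and 2.20 FPKM in siZBP1, a ratio of 1.54 that did not pass (limma adjusted p = 0.140). The other semaphorins tested and not called were Sema3b (log2 fold change -0.30), Sema3c (-0.21), Sema4b (0.09), Sema4c (0.13) and Sema6d (0.22). Sema3b and Sema3c, both secreted ligands of the neuropilin receptors, were the only class 3 genes above the filter, and the 7 class 3 genes together summed to 8.71 and 8.44 FPKM in siScr and to 6.34 and 6.60 FPKM in siZBP1.

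Among the plexin receptors, 3 were lower and 3 were higher. Plxna2, a class A plexin that pairs with neuropilins, was at 10.5 and 8.63 FPKM in siScr and at 5.49 and 5.48 FPKM in siZBP1. It was lower in both siZBP1 samples, with a limma log2 fold change of -0.70 (SE 0.11, adjusted p = 0.0148). Plxna3, another class A plexin, was at 2.17 and 1.404 FPKM in siScr and at 0.468 and 0.626 FPKM in siZBP1. This was the largest fall of a plexin, with a limma log2 fold change of -0.84 (SE 0.19, adjusted p = 0.0352). Plxnc1, the receptor of Sema7a, was at 39.3 and 38.6 FPKM in siScr and at 32.6 and 32.0 FPKM in siZBP1. The change of Plxnc1 was small, but its replicates were close in both groups, with a limma log2 fold change of -0.26 (SE 0.042, adjusted p = 0.0162). Sema7a and Plxnc1, a ligand and its receptor, were thus both lower. Without siZBP1 replicate 1 the adjusted p was 0.116 for Plxna2, 0.170 for Plxna3 and 0.120 for Plxnc1, and without siZBP1 replicate 2 it was 0.101, 0.123 and 0.116. Plxnc1 did not pass without siScr replicate 1 either (0.0596), and Plxna3 then fell under the filter.

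The plexins that were higher were Plxnb1, Plxnb2 and Plxnd1. Plxnb1, the Sema4d receptor of osteoblasts (chromosome 9, 109095389 to 109119917, plus strand), was at 1.30 and 0.979 FPKM in siScr and at 2.84 and 2.21 FPKM in siZBP1. Both siZBP1 samples were above both siScr samples, the ratio of means was 2.21, and the limma log2 fold change was 0.72 (SE 0.16, adjusted p = 0.0326). Plxnb2, the most abundant plexin, was at 123 and 116 FPKM in siScr and at 141 and 138 FPKM in siZBP1, with a limma log2 fold change of 0.22 (SE 0.045, adjusted p = 0.0287). Plxnb2 stayed far above Plxnb1 in every sample, by 94.5 and 119 times in siScr and by 49.6 and 62.5 times in siZBP1. Plxnd1, a receptor of Sema3e, was at 22.5 and 22.6 FPKM in siScr and at 28.3 and 25.8 FPKM in siZBP1, with a limma log2 fold change of 0.25 (SE 0.061, adjusted p = 0.0429). Like Epha3 and Sema6b, Plxnb1 and Plxnd1 did not pass with any 1 of the 4 samples left out, with adjusted p from 0.0671 (without siScr replicate 1) and from 0.0976 (without siZBP1 replicate 2), and Plxnb2 passed only without siScr replicate 1 (0.0449). Without siZBP1 replicate 1 the adjusted p of the 3 genes was 0.159, 0.187 and 0.200.

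Plxna1, the most abundant class A plexin, did not pass the threshold (log2 fold change 0.08, limma adjusted p = 0.194). Since Plxna2 was lower, the level of Plxna1 relative to Plxna2 was 5.44 and 6.84 in siScr and 11.2 and 11.3 in siZBP1. Plxna4 was at 0.845 and 1.11 FPKM in siScr and 1.47 and 1.33 FPKM in siZBP1 (log2 fold change 0.28, limma adjusted p = 0.202). Neither neuropilin passed. Nrp1, which binds class 3 semaphorins and VEGF, had overlapping groups, at 57.1 and 66.0 FPKM in siScr and 58.8 and 58.8 FPKM in siZBP1 (log2 fold change -0.06, limma adjusted p = 0.602). Nrp2 had separate groups and a log2 fold change of -0.08 (limma adjusted p = 0.180). The 9 plexins summed to 257 and 249 FPKM in siScr and to 274 and 267 FPKM in siZBP1, and the 2 neuropilins to 213 and 220 FPKM in siScr and to 206 and 206 FPKM in siZBP1.

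The ratio of group means over 1.5-fold, a size criterion without a test that the study used for its gene lists, was applied to the 51 members with both means above 0. It gave 16 members lower and 7 higher, where it gave 13.8% lower and 10.7% higher among the 16281 such genes in the table. Of the members over 1.5-fold, 8 lower and 2 higher had also passed limma, and Ephb2 and Sema4a had been tested and had not passed. The other 11 had a mean under 1 FPKM. Among these, Efna1, Sema3f (0.656 to 0.173 FPKM as group means), Sema3g (0.180 to 0.0466), Epha4 (0.618 to 0.310) and Ephb1 (0.0858 to 0.0442) were lower with separate groups. Sema6c (0.391 to 0.637), Epha7 (0.245 to 0.666), Efnb3 (0.0861 to 0.186) and Plxnb3 (0.279 to 0.419) were higher with separate groups, and Sema5b and Sema6a were lower with overlapping groups. Many of these low values rest on few fragments, since the rough depth puts Ephb1 at 0.92 to 8.1 and Sema3g at 2.2 to 16 fragments per sample, against 210 to 1400 for Efnb1. The other 9 untested members, including Epha8 and Epha10, were under 1.5-fold or had a group at 0. In contrast, Plxnb2, Plxnc1, Plxnd1 and Sema6b had passed limma at under 1.5-fold.

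**Figure D4:**
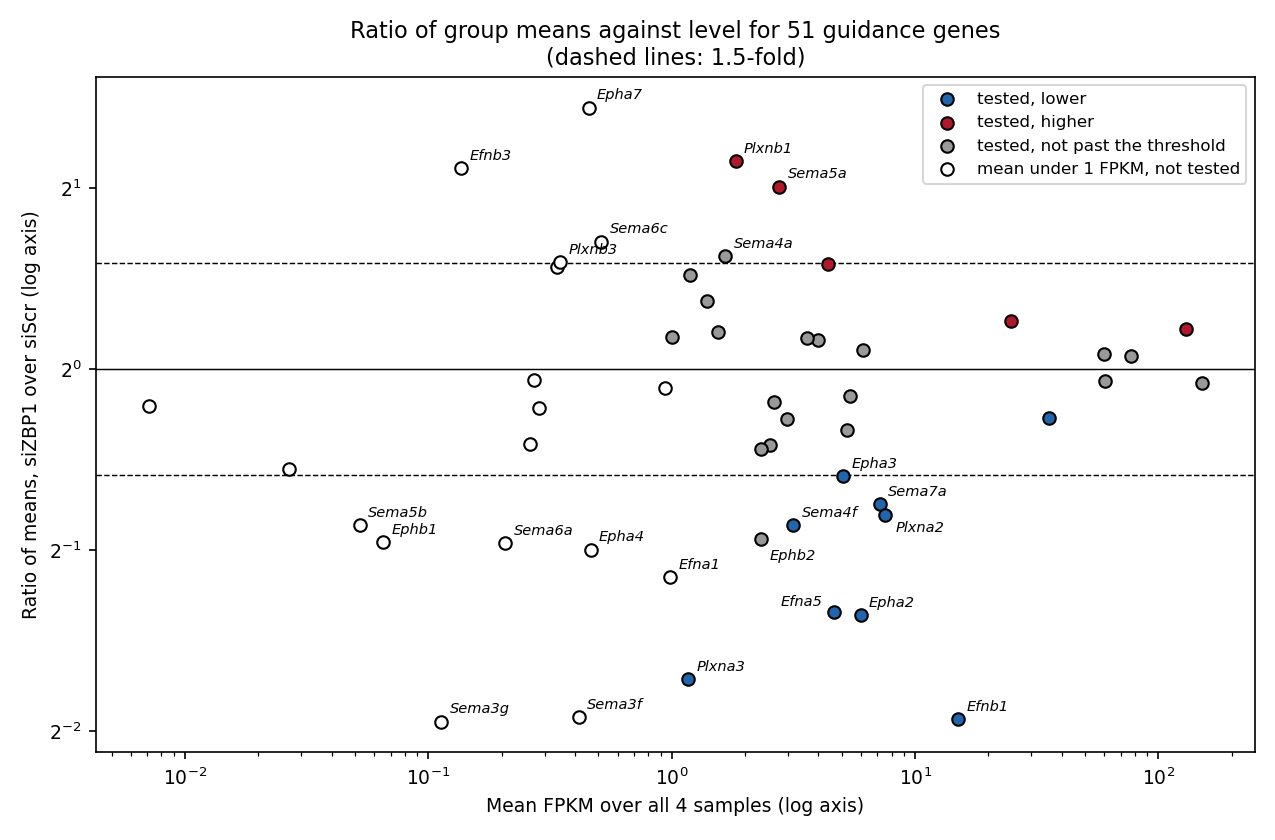
Ratio of the group means (siZBP1 over siScr, log axis) against the mean FPKM over all 4 samples (log axis) for the 51 guidance genes with both means above 0, with dashed lines at 1.5-fold. The members above 100 FPKM are Nrp2 at a ratio of 0.948 and Plxnb2, which was called higher, at 1.17. Efnb1 lies at 0.262 with a mean of 15.02 FPKM, and the open points are the members under 1 FPKM that were not tested.

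The genes that lie around these receptors were taken from a list of 51 co-receptors, adaptors and enzymes of guidance signaling, of which 45 were tested. The list was chosen with earlier results of these data known, so its shares are not independent of them. By limma 13 were lower, 6 were higher and 26 did not pass, and the median log2 fold change was -0.04. These are 28.9% lower and 13.3% higher of those tested, where all genes tested gave 14.8% and 13.5%, so that the higher share is near the background, and the difference of the lower share was not tested. The largest fall was in Mical2, of a family of oxidizing enzymes known for disassembling actin filaments below plexins, at 56.34 and 51.003 FPKM in siScr and 15.6 and 16.2 FPKM in siZBP1 (log2 fold change -1.69, adjusted p = 0.00199). Nrcam, an adhesion molecule that associates with neuropilin, followed at 6.43 and 5.59 against 1.57 and 1.45 FPKM (-1.48, limma adjusted p = 0.00377). Dpysl3, a cytoskeletal protein of the collapsin response mediator family, was at 43.0 and 38.9 against 18.1 and 18.3 FPKM (-1.12, limma adjusted p = 0.00277). All 3 of these genes were lower in both siZBP1 samples. The largest rise was in Tyrobp, a signaling adaptor of myeloid cells, at 741 and 768 FPKM in siScr and 1097 and 1025 FPKM in siZBP1 (0.49, limma adjusted p = 0.00779). Vav3, a guanine nucleotide exchange factor, was at 9.24 and 11.1 against 14.5 and 13.8 FPKM (0.45, limma adjusted p = 0.0330), and the adaptor Nck2 was at 4.21 and 4.19 against 5.74 and 5.87 FPKM (0.39, limma adjusted p = 0.0257). Tyrobp and Trem2 also stand in the macrophage list. Fits with 1 sample left out cannot show which of the 6 genes with values here rest on 1 sample.

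An siRNA can lower other transcripts whose 3' UTR matches the seed of its antisense strand, and such matches were therefore looked up. The methods name 2 siRNAs against Zbp1 and do not say which was used for sequencing. The seed of the second was not searched here, so that what follows covers the first alone. For the first, siZBP1-1, the 7 bases CAGCCAA pair with bases 2 to 8 of its antisense strand. They occur in the 3' UTR of 8 of the 33 members tested (24.2%) and of 13.2% of all genes tested with a 3' UTR of at least 50 bases. UTR length was not matched. Of the 8 members with a match, 3 were lower, 0 were higher and 5 did not pass, and their median log2 fold change was -0.17, and of the 25 without, 6 were lower, 5 were higher and 14 did not pass, with a median of -0.06. The members that fell most, Efnb1, Epha2 and Efna5, have no match to the seed of siZBP1-1. Over all genes tested, 25.9% of those with a match and 13.5% of those without were lower, and 9.64% and 14.8% were higher. Whether seed matches of either siRNA had a part in the change of any gene here was not tested. The 3' UTR windows of the called members with a match and of Nrp2, which did not pass, are printed 5′ to 3′ on the transcript strand from GENCODE M21 on GRCm38, with the match in capitals. Those of Epha3 (chr16:63545427-63545456, minus strand), Plxna2 (chr1:194813647-194813676, plus strand), Plxnc1 (chr10:94791811-94791840, minus strand) and Nrp2 (chr1:62816219-62816248, plus strand) differ on either side of the match.
Epha3: gggttttgttaCAGCCAAgtgccaaatgct
Plxna2: atgacccctagCAGCCAActccaacagctt
Plxnc1: tttctttcaatCAGCCAAtcaaaccttgag
Nrp2: tcgggttctgcCAGCCAAccctaggagctg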

How the data were processed

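Libraries of 2 siScr and 2 siZBP1 samples of mBMSCs were made by the authors with the TruSeq RNA kit and mapped to mm10 with TopHat. The deposited FPKM values were extracted with HTSeq per the methods, while the submitters' processing notes name Cufflinks; the annotation is not given in the sources used here. The deposited group means equal the replicate means within 5e-10, and 0 columns were without a sample. Values of log2(FPKM + 1) were tested with limma 3.58.1 in R 4.3.3, with a variance trend, for genes with a mean of at least 1 FPKM, without a block, and adjusted by Benjamini and Hochberg at 0.05. The fit was run on simulated data with planted changes larger than those of all called members but Efnb1. Spreads were shuffled between genes there, so the run does not cover the variance trend or smaller changes. Ratios of means used FPKM as deposited, over 1.5-fold, with no test. Precision is limited by 2 samples per group, and no counting error was computed. GENCODE M21 on GRCm38, the assembly behind mm10, gave positions and 3' UTRs, and RefSeq on GRCm38.p6 gave promoters. Python 3.11.15, pandas 2.3.3 and matplotlib 3.10.9 were used. The members, gene lists and tests were chosen with earlier results of these data known. Genes named were Zbp1, every member above the filter, untested members over 1.5-fold with separate groups, the 3 largest falls and rises of each other list past the threshold, and marker lists by their sums. Other members, markers and list genes named beyond this rule were chosen after their values were seen. Alternatives covered the pseudocount, filter, scaling, variance model, replicate block, seed matches and each sample left out.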

Additional observations from a re-analysis of the deposited data

How the results depend on the processing

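With all 4 samples, the log2 fold changes of Zbp1, the tested members and the listed genes gave 453 values under alternative settings, of which 440 kept their direction and side of the threshold, 8 lost the threshold, 5 gained it and 0 changed sign. Calls were lost by Plxna3 with quantile normalization (adjusted p = 0.0628), by Plxnd1 and Sema6b with no filter on low values (0.0582 and 0.0574), and by Plxnb2 and Plxnd1 with no variance trend (0.0703 and 0.0712), all by limma. Among the partner genes, Vav3 lost its call with no filter (0.0517), and Nck2 with no filter (0.0550) and with the filter at 5 FPKM (0.0727). Calls were gained by Ephb2 with log2(FPKM + 0.1), log2(FPKM + 0.5), robust eBayes and the replicate block (0.0436, 0.0490, 0.0266 and 0.0442), by Sema3b with no variance trend (0.0346), by Efna1 and Sema3f with the filter at 0.1 FPKM (0.0348 and 0.0318) or no filter (0.0419 and 0.0266), and by Epha4 with no filter (0.0366). The count of members higher was 2 with the filter at 5 FPKM, 3 with no filter and 3 with no variance trend. With the filter at 5 FPKM, 8 of the 14 called members were still tested and all 8 stayed called. That filter also takes partner, netrin and Slit genes with a lower mean out of the test. Partner genes were 8 lower with the filter at 5 FPKM and 3 higher with no filter. The netrin and Slit genes were 2 lower with the filter at 5 FPKM and 3 lower without genes with a seed match. They were 2 higher with the filter at 0.1 FPKM, with no filter and with quantile normalization, and 3 higher with robust eBayes. By the ratio of means, members were 8 lower and 2 higher with 1 added to both means, and 9 lower and 3 higher with a mean of at least 1.

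Whether samples with the same replicate number were paired is not known. The correlation over genes of the difference between replicates 1 and 2 in siScr and siZBP1 was -0.063. This gave no sign of pairing, but it cannot exclude a shared culture or batch. With the replicate block, all 14 called members stayed called, Ephb2 was added, the netrin and Slit genes were 2 higher, and the other counts stayed within 1.5 times.

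With each sample left out in turn, lower and higher counts by limma ranged from 48 to 1467 and from 22 to 1248 for all genes, from 0 to 8 and from 0 to 2 for the members, from 1 to 9 and from 0 to 5 for the partner genes, and from 0 to 4 and from 0 to 2 for the netrin and Slit genes. Both siZBP1 samples had the lowest counts, with 48 and 22 genes without replicate 1 and 113 and 32 without replicate 2. Such fits assume that a single remaining sample varies as the other group does. The members higher by the ratio ranged from 5 to 11. Signs reversed for Efna3, at -0.16 without siScr replicate 1 (limma adjusted p = 0.409), and for Nrp1, at 0.042 without siScr replicate 2 (0.4997) and -0.16 without siScr replicate 1, none of them called. The depth estimate limits members under 1 FPKM most. The cause of these changes was not tested.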

Other observations

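Netrins, Slits and their receptors form another family of guidance cues. Of 27 such genes 3 were at 0 in all samples and 14 were tested, of which 5 were lower, 1 was higher and 8 did not pass by limma, with a median log2 fold change of -0.08. The shares are 35.7% lower and 7.14% higher, where all genes tested gave 14.8% and 13.5%, and the differences were not tested. This list too was chosen with earlier results of these data known. The largest falls were in netrin receptors. Unc5c was at 2.95 and 2.32 FPKM in siScr and 0.366 and 0.621 FPKM in siZBP1 (log2 fold change -1.28, limma adjusted p = 0.0101). Neo1, which binds netrins and repulsive guidance molecules, was at 24.2 and 22.4 against 8.45 and 10.2 FPKM (-1.24, limma adjusted p = 0.00469), and Unc5b was at 36.1 and 30.9 against 16.5 and 17.1 FPKM (-0.95, limma adjusted p = 0.00525). The groups of all 3 receptors were separate. Slit3 and Ntn1, both secreted ligands, were also lower (-0.84 and -0.47). Rgmb, a ligand of Neo1, was higher, at 8.47 and 7.85 against 11.4 and 11.3 FPKM (0.43, limma adjusted p = 0.0151). Without siZBP1 replicate 1 the list held 0 lower and 0 higher (4 and 1 at an unadjusted p under 0.05), and the adjusted p was 0.0863 for Unc5c, 0.0588 for Neo1, 0.0752 for Unc5b and 0.123 for Rgmb. Without siZBP1 replicate 2 it was 0.0648 for Unc5c, 0.0422 for Neo1, 0.0635 for Unc5b and 0.104 for Rgmb.

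A core motif of Wnt response elements was searched on both strands as CTTTGAA and as CTTTGAT and also as CTTTGTA and as CTTTGTT in RefSeq promoters (GRCm38.p6) from 250 bases before to 50 after the start. It was present in 8 of 47 members with an entry (17%), against 18.9% of all 27025 genes with an entry. The 8 were Efna4, Epha2, Nrp2, Plxnb1, Sema3c, Sema3d, Sema3e and Sema6d. Among the 9005 tested genes with an entry the share was 13.9%, but the 47 include untested members, Sema3d and Sema3e among them. The paper searched a wider region around the start of Zbp1 for this motif. Of the 8 members with the motif, Epha2 was lower and Plxnb1 was higher.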
